A study of Mus musculus with 30 samples.

Results

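The CLK and SRPK splicing kinases were followed as 6 genes (Clk1, Clk2, Clk3, Clk4, Srpk1 and Srpk2), taken by symbol from the 24062 genes of a table of expression values. All 6 were found, and all 6 were among the 11759 genes tested, which are those with an expression value of at least 1 in at least 2 libraries. Values are FPKM, fragment numbers scaled to transcript length and to library size. Levels of different genes can be set side by side roughly, while differences between libraries also depend on the scaling, as given below. Clk2 was chosen because it is listed at 0 in every library of 1 control group, fixed-regimen saline, so wherever that group enters a comparison its values are given as a description with no test. The cells came from C57BL/6J mice and were CD11b-positive cells drawn by magnetic selection from the caudal lumbar spinal cord, which the labels call microglia, macrophages that reside in brain and spinal cord. CD11b is an integrin that neutrophils and monocytes carry as well.

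The 30 libraries fall into 12 groups. Controls were naive mice with neither treatment nor injury (2 libraries), mice on a fixed saline regimen (4) and mice on an escalating saline regimen (3). Injured mice had the sciatic nerve transected (SNT) and were taken at 1, 2, 4 or 7 days post injury (dpi), or had a chronic constriction of the nerve (CCI) and were taken at 2 or 7 dpi, or had the spared nerve lesion (SNI) and were taken at 7 dpi, with 2 libraries in each of these 7 groups. Chronic morphine followed a fixed schedule in 4 libraries and an escalating schedule in 3. No label used here gives a dose, sex or age, and none says that each library came from its own mouse, so p-values measure the spread between libraries, which may be technical. Because these are bulk samples, fewer cells of a type and less RNA per cell cannot be told apart.

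CLK kinases and SRPK kinases phosphorylate SR proteins, splicing factors named for a domain rich in arginine and serine that help choose exons. SRPK1 and SRPK2 act mainly in the cytoplasm, where phosphorylation lets SR proteins enter the nucleus. CLK1, CLK2, CLK3 and CLK4 act mainly in the nucleus, where they release SR proteins from nuclear speckles, and their own transcripts are known for regulated splicing, with versions that keep introns or skip the exon needed for an active kinase. An FPKM value for a whole gene does not separate such versions.

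The stretches of 250 bases just before the annotated starts of Clk2 and Clk4 are shown because Clk2 was the member that stood apart from the others across libraries and Clk4 the member that varied together with Clk1. Both are from RefSeq, assembly GRCm38.p6, which is the mm10 build named in the submitters' processing notes; 5 of the 6 members had an entry, and Clk1 had none. The Clk2 stretch is chr3:89164545-89164794 and the Clk4 stretch is chr11:51262864-51263113, both on the plus strand, printed 5′ to 3′. Capitals mark matches to an E-box (CACGTG), a cyclic AMP response element (TGACGTCA) and a GC box (GGGCGG), each searched on both strands, and no match overlapped another.
Clk2: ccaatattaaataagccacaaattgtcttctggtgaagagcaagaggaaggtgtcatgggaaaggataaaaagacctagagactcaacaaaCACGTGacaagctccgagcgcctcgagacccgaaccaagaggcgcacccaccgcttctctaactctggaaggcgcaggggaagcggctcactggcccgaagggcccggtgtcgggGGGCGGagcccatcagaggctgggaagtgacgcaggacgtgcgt
Clk4: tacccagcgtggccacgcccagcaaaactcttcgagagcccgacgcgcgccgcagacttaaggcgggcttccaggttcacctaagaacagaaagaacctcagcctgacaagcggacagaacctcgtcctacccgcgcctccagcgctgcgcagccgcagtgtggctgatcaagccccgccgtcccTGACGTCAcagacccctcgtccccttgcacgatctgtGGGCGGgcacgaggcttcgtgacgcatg
The Clk2 stretch held an E-box 159 bases before the start and a GC box 44 bases before it. The Clk4 stretch held a cyclic AMP response element 65 bases before the start and a GC box 28 bases before it. Of 32851 stretches of this length in the table, 6.02% held the E-box letters, 1.55% the cyclic AMP response element and 32.7% the GC box. These matches describe letters, and nothing in these libraries reports on binding.

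Before the results, a split among the libraries has to be given. The level of Cst3, the abundant secreted protease inhibitor cystatin C, left a gap: 16 libraries had 39503 to 95123 FPKM and the other 14 had 10120 to 20827 FPKM. This split was found in the data and matches no label, and below these are called the high-Cst3 and low-Cst3 libraries. All 7 saline libraries, SNT at 1, 2 and 4 dpi, SNT_7dpi replicate 1 and escalating morphine replicates 2 and 3 were high-Cst3. The naive, CCI, SNI and fixed-morphine libraries, SNT_7dpi replicate 2 and escalating morphine replicate 1 were low-Cst3. Fixed morphine and fixed saline therefore lie wholly on opposite sides, and for them treatment and side cannot be told apart. The files give no read counts, so depth is unknown; 8005 to 10427 genes per library had at least 1 FPKM, and 3 libraries had fewest, SNT_1dpi replicate 1 (8005), SNT_7dpi replicate 1 (8466) and SNT_2dpi replicate 2 (8763). The 5th percentile of the nonzero values was 0.0819 to 0.210 FPKM in the high-Cst3 and 0.0299 to 0.104 FPKM in the low-Cst3 libraries. It tends to fall as depth rises, which could not be checked here without read counts. The 12 microglial markers were above 0 in all 30 libraries and summed to 7350 to 17100 FPKM, while 7 neutrophil markers summed to 1570 to 58500 FPKM and the endothelial marker Cldn5 was listed at 0 in 26 libraries.

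Clk1, the founding member of the CLK family, was the most abundant of the 6, with a median of 39.65 FPKM over the 30 libraries and a range of 10.01 to 133.5 FPKM. Clk3 had a median of 19.97 FPKM (4.15 to 29.6), Clk4 13.8 FPKM (5.37 to 28.2), Clk2 5.51 FPKM (0 to 17.4), Srpk1 5.23 FPKM (1.77 to 12.2) and Srpk2 3.62 FPKM (2.53 to 6.04). The nuclear kinase Clk1 also varied most between groups among the 5 members never listed at 0: its highest group mean was 8.46 times its lowest, against 3.32 times for Clk4, 2.37 for Clk3, 2.10 for Srpk1 and 1.5 for Srpk2. Ordered by group mean, SNT_4dpi stood first for Clk1 at 130.4 ± 4.44 FPKM (SD, n = 2) and for Clk4 at 27.05 ± 1.64 FPKM (SD, n = 2), and in both cases its libraries did not overlap the next group. Every other pair of neighbours in the orders for Clk1, Clk3, Clk4, Srpk1 and Srpk2 overlapped in their ranges. Parts of 2 members lie over other genes, Clk4 (chr11:51263114-51281770) over BC049762 and Srpk2 (chr5:23503356-23684642) over Kmt2e, and the library method does not mark strand, so some of their reads may belong to those genes.

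**Figure D1:**
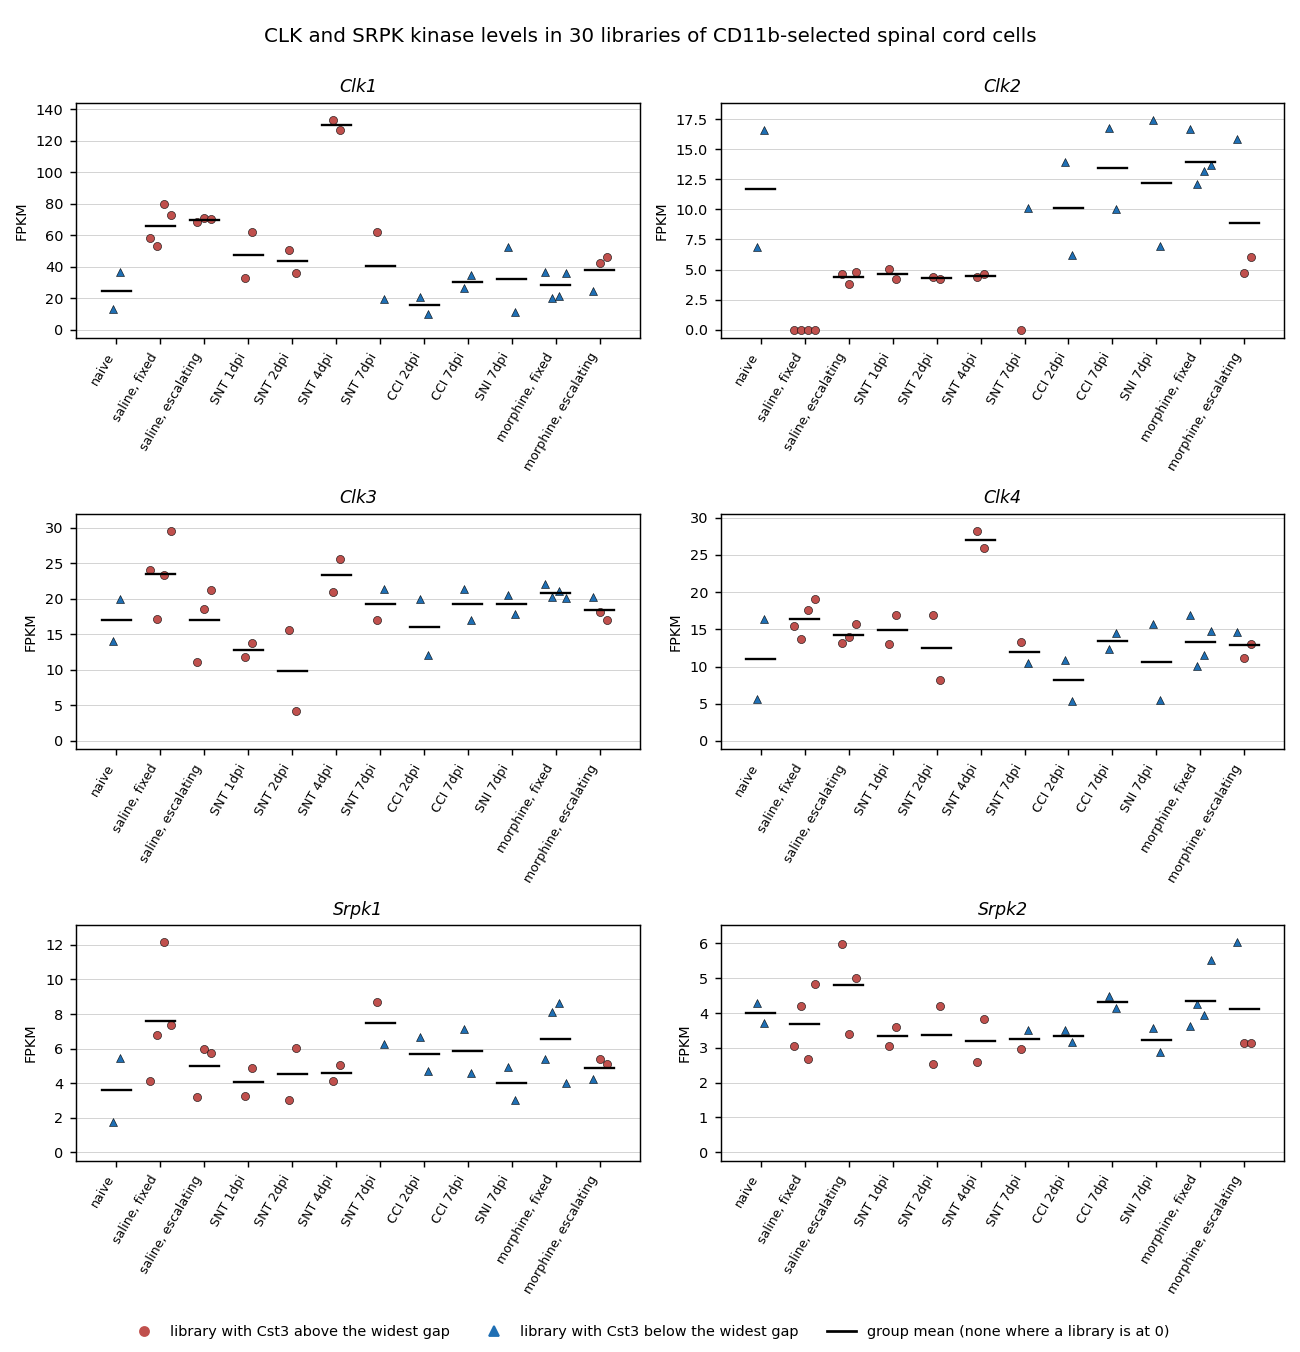
FPKM of each kinase in every library (points), by group along the x axis; circles are high-Cst3 and triangles low-Cst3 libraries, and bars are group means, left out where a library is listed at 0. The SNT_4dpi libraries stand above all others for Clk1 (127.2 and 133.5 FPKM) and Clk4 (25.9 and 28.2 FPKM), and Clk2 is listed at 0 in fixed saline.

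Clk2 (chr3:89164795-89177087) was listed at 0 in saline_fixed replicates 3, 4, 5 and 6 and in SNT_7dpi replicate 1, and above 0 in the other 25 libraries. None of the other 5 kinases was listed at 0 in any library. In the 11 high-Cst3 libraries where Clk2 was above 0 it lay between 3.81 and 6.02 FPKM, and in the 14 low-Cst3 libraries between 6.24 and 17.4 FPKM, so the sides did not overlap. Across the genes tested 3.49% were lower in all 16 high-Cst3 libraries than in the 14 others, and of the 6 kinases Clk2 was the only such member. The fixed-saline zeros that chose Clk2 are among those 16, so its place there is a description and no test. Clk1 lay on the other side, with 32.9 to 133.5 FPKM in the high-Cst3 and 10.01 to 52.8 FPKM in the low-Cst3 libraries, which overlap.

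The zeros of Clk2 were uncommon for a gene of its level, which is given as a description since they chose the gene. Of 5399 genes with a mean of at least that of Clk2 (7.57 FPKM, itself included), 246 (4.56%) were listed at 0 in some library, 22 in at least 5 libraries, and Clk2 alone in all 4 fixed-saline libraries. Among all genes tested, 89 were listed at 0 in all 4 fixed-saline libraries, and Clk2 was the only one of them that was above 0 in at least 25 of the other 26. The limits used here, the mean, 5 libraries and 25 of 26, are Clk2's own values. That Clk2 meets them was fixed in advance and counts as no support. The 5th percentile of nonzero values ran from 0.130 to 0.203 FPKM in the fixed-saline libraries. It ran from 0.0924 to 0.208 FPKM in escalating saline, where Clk2 stood at 3.81, 4.62 and 4.81 FPKM. A value of 0 in such a table can be a failed estimate as well as an absence of reads, and which applies here was not tested.

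The neighbourhood of Clk2 bears on how its reads are assigned. RefSeq lists a read-through gene, Gm45927 with the synonym Clk2-scamp3 (chr3:89164795-89182770), that begins at the same base as Clk2 and runs through Scamp3, a gene for a membrane trafficking protein whose start lies 303 bases after the end of Clk2 (chr3:89177391-89182770). The table has a row for this read-through gene, at 5.52 FPKM in CCI_7dpi replicate 2 and at 0 in the other 29 libraries, so in the fixed-saline libraries both rows that cover the Clk2 region were at 0. Clk2 levels are uncertain to the extent that the counting split reads between these rows. Scamp3 itself had 49.8, 33.7, 59.4 and 53.3 FPKM in the 4 fixed-saline libraries, within its range of 15.9 to 65.4 FPKM over all 30. Hcn3, a channel gene on the other side (chr3:89146775-89160284), stayed at or under 0.850 FPKM throughout.

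**Figure D2:**
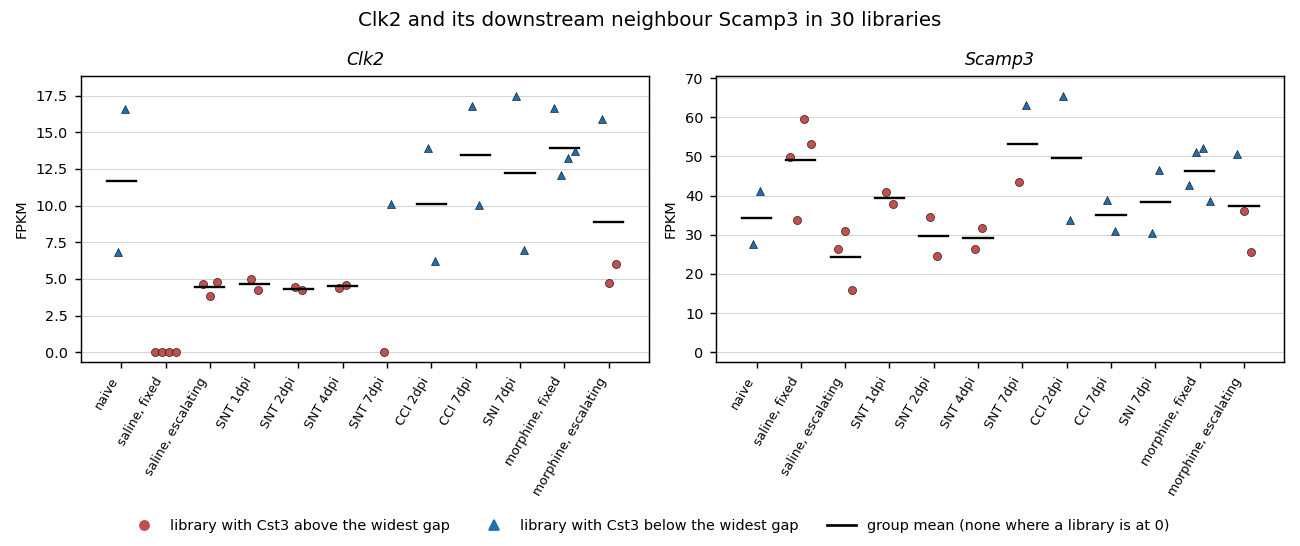
FPKM of Clk2 (left) and of its neighbour Scamp3 (right) in every library by group; circles are high-Cst3 and triangles low-Cst3 libraries, and bars are group means where no library is at 0. Clk2 is at 0 in the 4 fixed-saline libraries and SNT_7dpi replicate 1, whereas Scamp3 is above 15 FPKM in all 30.

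Among the controls, Clk1 was lower in naive mice than in saline-treated mice. The naive libraries had 12.9 and 36.6 FPKM. Those of fixed saline had 58.6, 53.2, 80.2 and 72.9 FPKM, and the escalating saline libraries had 68.5, 71.0 and 70.2 FPKM. The naive libraries did not overlap the 7 saline libraries, as was so in this direction for 6.07% of genes tested. The 3 kinds of control did not differ in Clk1 past the threshold (limma moderated F-test with Benjamini-Hochberg adjustment, adjusted p = 0.202), and 0 of the 5 kinases tested were called, against 0.102% of all genes. Naive against escalating saline gave a log2 difference of -1.63 ± 0.52 (SE; limma, adjusted p = 0.177) for Clk1 and 1.12 ± 0.63 (SE; limma, adjusted p = 0.459) for Clk2, whose naive libraries had 6.84 and 16.6 FPKM. Naive libraries are low-Cst3 and saline libraries high-Cst3, so handling and side cannot be told apart here. The spread behind the Clk2 error takes in the 4 fixed-saline zeros, which have no spread, wherever those libraries share the fit.

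After sciatic nerve transection, Clk1 and Clk4 were at their highest at 4 dpi. Clk1 stood at 32.9 and 62.3 FPKM in the libraries of day 1, 50.9 and 36.2 in those of day 2, 133.5 and 127.2 in those of day 4, and 61.9 and 19.4 in those of day 7. Clk4, the closest relative of Clk1 in the family, had 13.0 and 16.9 FPKM, 16.9 and 8.13 FPKM, 28.2 and 25.9 FPKM, and 13.3 and 10.5 FPKM on the same days. For both genes the libraries of day 4 lay above all 28 others, where Clk1 reached 80.2 and Clk4 19.1 FPKM; 0.731% of genes tested (86) did so. Against the 9 controls alone, 2.39% of genes were higher at 4 dpi with no overlap.

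The day 4 differences did not pass the threshold over all genes. Clk1 differed from the 9 controls by 1.29 ± 0.56 on the log2 scale (SE; limma, adjusted p = 1.00) and Clk4 by 0.91 ± 0.40 (SE; limma, adjusted p = 1.00), Clk4 being named here after its values were seen. In that comparison limma called 0 of the 5 kinases and 0 of 11759 genes, while 275 genes had an unadjusted p under 0.05; both genes were among those, with 0.0296 for Clk1 and 0.0311 for Clk4. Against the 7 saline controls on the same Cst3 side, the differences were 0.94 ± 0.43 for Clk1 and 0.78 ± 0.39 for Clk4 (SE; limma, adjusted p = 1.00 for each). The SNT_4dpi libraries had 14500 and 15700 FPKM of summed microglial markers and 6520 and 6740 FPKM of neutrophil markers, inside the ranges of the other 28 libraries (7350 to 17100 and 1570 to 58500 FPKM). Day 4 against days 1, 2 and 7 gave Clk1 differences of 1.5 ± 0.71, 1.58 ± 0.71 and 1.87 ± 0.71 (SE; limma, adjusted p = 0.419, 0.833 and 0.592), and none was called.

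The other kinases did not have their libraries of day 4 above all others. Clk3, whose product also phosphorylates SR proteins, had 11.9 and 13.8 FPKM on day 1, 15.7 and 4.15 on day 2, 21.0 and 25.6 on day 4, and 17.0 and 21.4 on day 7, beside 11.1 to 29.6 FPKM in the controls. At 1 dpi Clk3 differed from controls by -0.55 ± 0.37 (SE; limma, adjusted p = 0.460) and at 2 dpi by -1.12 ± 0.37 (SE; limma, adjusted p = 0.670), the lowest p of the 5 kinases on either day. The day 2 value rests on 1 library, SNT_2dpi replicate 2 at 4.15 FPKM, which is among the 3 with fewest genes: without replicate 1 Clk3 was at -1.97 ± 0.41 (adjusted p = 0.0059, for 1 library assumed to vary like the other groups), and without replicate 2 the difference was at its smallest, -0.28. Clk2 had 5.01 and 4.24, 4.42 and 4.23, 4.36 and 4.60, and 0 and 10.1 FPKM over the same days, and Srpk1 and Srpk2 stayed at 3.04 to 8.72 and 2.53 to 4.21 FPKM. At 7 dpi the lowest p was that of Clk1, at -0.58 ± 0.56 (SE; limma, adjusted p = 0.792); its libraries lie on opposite Cst3 sides, and without SNT_7dpi replicate 2 the value was 0.23. None of the 5 kinases was called on any day, against 0.0170% of genes at 1 dpi, 0% at 2 dpi and 0.204% at 7 dpi.

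After chronic constriction and the spared nerve lesion, Clk1 was lower than in most controls. It had 20.8 and 10.01 FPKM in CCI_2dpi, 26.3 and 34.5 FPKM in CCI_7dpi and 52.8 and 11.3 FPKM in SNI_7dpi, against 12.9 to 80.2 FPKM in the 9 controls. The differences were -1.79 ± 0.56, -0.78 ± 0.56 and -1.06 ± 0.56 (SE; limma, adjusted p = 0.385, 0.681 and 0.999). In each of these comparisons 0 of 5 kinases were called, against 0.00850% of genes in CCI_2dpi and 0% in the others. All 6 libraries are low-Cst3, and beside the 2 naive controls of that side Clk1 differed by -0.56, 0.44 and 0.17, so the direction turned for CCI_7dpi and SNI_7dpi. In CCI_2dpi and SNI_7dpi, Clk1, Clk2 and Clk4 were high or low together: CCI_2dpi replicate 2 and SNI_7dpi replicate 2, lowest for Clk1, had 5.37 and 5.45 FPKM of Clk4 and 6.24 and 6.97 FPKM of Clk2, whereas their partners had 10.9 and 15.7 FPKM of Clk4 and 13.9 and 17.4 FPKM of Clk2. In CCI_7dpi this was not so: replicate 2 was higher than replicate 1 for Clk1 and Clk4 (14.5 against 12.3 FPKM) and lower for Clk2 (10.1 against 16.8 FPKM) and Clk3 (17.0 against 21.4 FPKM).

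Taking the 7 injury groups as a whole, none of the kinases was called against controls. Clk1 had the lowest p of the 5 members, with -0.49 ± 0.30 (SE; limma, adjusted p = 0.933), and 0% of genes tested were called. Clk2 was tested against the 5 controls that are not fixed saline and was called in 0 of 8 comparisons, where 0% to 0.0170% of genes tested were called. For Clk2 the difference over the 7 groups was -0.04 ± 0.43 (SE; limma, adjusted p = 1.00). Its lowest p in a single group was at SNT_7dpi, -1.15 ± 0.70 (SE; limma, adjusted p = 0.824), which rests on the library listed at 0: without SNT_7dpi replicate 1 the difference was 0.59, and without replicate 2 it was -2.88 ± 0.65 (adjusted p = 0.0226), again for 1 library assumed to vary like the other groups.

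Under fixed morphine, Clk1 was lower than under fixed saline, with 36.7, 20.2, 21.3 and 36.0 FPKM against 58.6, 53.2, 80.2 and 72.9 FPKM, and the groups did not overlap, as for 7.49% of genes tested in this direction. The log2 difference was -1.22 ± 0.24 (SE; limma, adjusted p = 0.00815), beside a median of 0.22 over all genes tested. Fixed morphine is wholly low-Cst3 and fixed saline wholly high-Cst3, so treatment and side cannot be told apart in this difference. The naive libraries, which are low-Cst3 and had no morphine, had 12.9 and 36.6 FPKM of Clk1. Clk1 was the only one called of the 5 kinases tested, against 18.0% of all genes in either direction and 4.46% lower. Clk3 (20.1 to 22.1 against 17.2 to 29.6 FPKM), Clk4 (10.1 to 16.9 against 13.6 to 19.1 FPKM), Srpk1 (3.99 to 8.63 against 4.13 to 12.2 FPKM) and Srpk2 (3.64 to 5.53 against 2.68 to 4.84 FPKM) overlapped between the groups. Clk2 had 16.7, 12.1, 13.2 and 13.7 FPKM under fixed morphine beside 0 in all 4 saline libraries, and 22.1% of genes tested were higher under fixed morphine with no overlap. With the spread taken from all 30 libraries the Clk1 difference was the same and its adjusted p was 0.058, so that it was no longer called. Scaling moved the median of all genes in this comparison from 0.22 to -0.02 with quantile normalization, 0.04 with median-ratio scaling and 0.53 with TPM rescaling, and the share of called genes that were higher from 75.3% to 54.4%, 57.0% and 91.3%. Clk1 stayed negative and called under all 3, at -1.34, -1.44 and -0.94 (limma, adjusted p = 0.0121, 0.00882 and 0.0159). The markers of border macrophages summed to 0.798 to 1.53 FPKM under fixed morphine and 2.65 to 10 FPKM in fixed saline, without overlap, the neutrophil markers to 1570 to 16000 against 6530 to 26700 FPKM, and the oligodendrocyte markers to 133 to 224 against 68.3 to 146 FPKM; the part of these cells in the result was not tested.

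Under escalating morphine the direction for Clk1 was the same and the difference did not pass the threshold. Clk1 had 24.8, 42.6 and 46.0 FPKM against 68.5, 71.0 and 70.2 FPKM in escalating saline, with no overlap, as for 5.02% of genes tested in this direction. The log2 difference was -0.92 ± 0.28 (SE; limma, adjusted p = 0.126). The 2 morphine libraries on the same Cst3 side as the saline libraries, 42.6 and 46.0 FPKM, were also below all of them, as for 10.1% of genes tested and for Clk4 and Srpk2 among the kinases, and with those alone the difference was -0.65 ± 0.27 (SE; limma, adjusted p = 0.360). Clk2 had 15.9, 4.72 and 6.02 FPKM against 4.62, 3.81 and 4.81 FPKM, a difference of 0.70 ± 0.33 (SE; limma, adjusted p = 0.261), and 0.23 with the 2 libraries of the shared side alone. The fixed-saline libraries share this fit, and their Clk2 zeros have no spread. The Clk2 error and p are therefore not free of the values that chose the gene. None of the 6 kinases was called, against 0.0340% of genes. The 2 regimens' responses did not differ past the threshold in any of the 5 kinases tested, against 0.00850% of genes called, and the lowest p was that of Srpk2 at 0.40 ± 0.39 (SE; limma, adjusted p = 0.713).

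**Figure D3:**
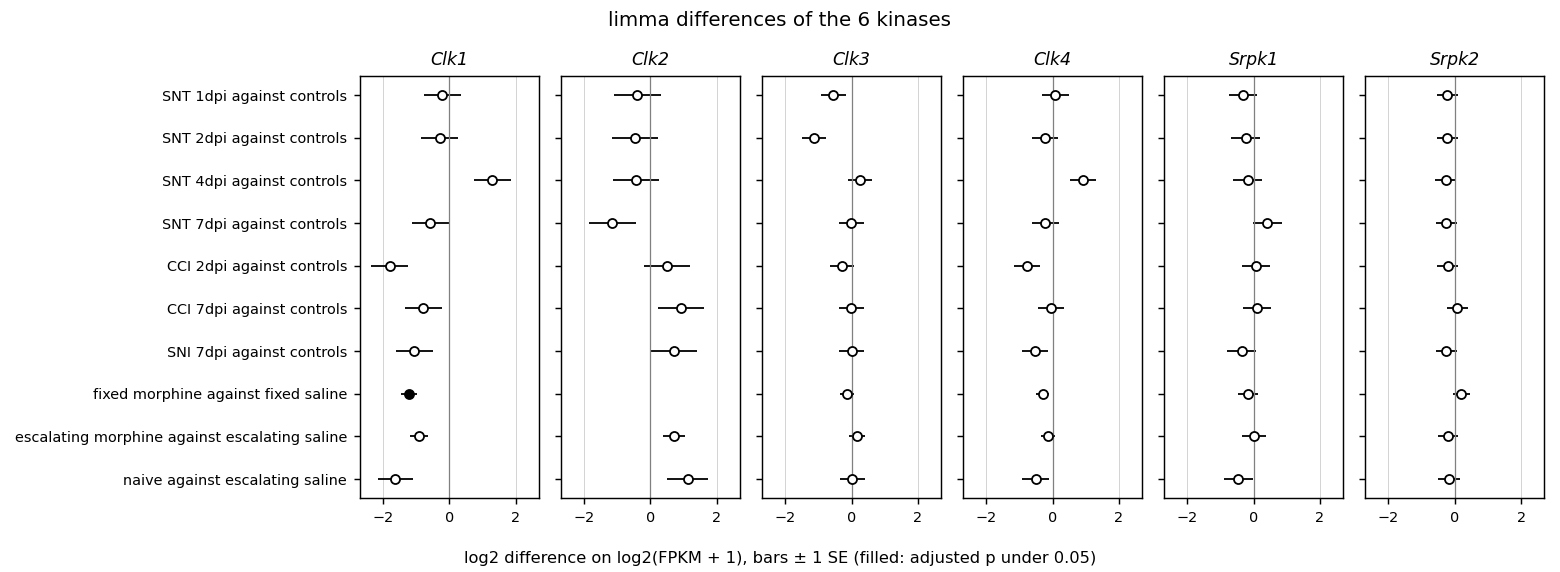
Log2 differences on log2(FPKM + 1) from limma, with bars of 1 SE, for each kinase (panels) and comparison (rows); filled points have an adjusted p under 0.05. For the injury groups Clk2 is shown against the 5 controls without fixed saline, and it has no point where fixed saline is the comparison. In the escalating-morphine and naive rows the Clk2 error takes in the fixed-saline zeros. The filled point is Clk1 under fixed morphine, at -1.22.

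Over all 12 groups at once, Clk1 was the only one called of the 5 kinases tested (limma moderated F-test, adjusted p = 0.0183), against 7.72% of all genes. Without the 4 fixed-saline libraries, 0 of 6 kinases were called, against 2.96% of genes, with an adjusted p of 0.0694 for Clk1 and 0.246 for Clk2 (limma). The Clk1 call over all groups was lost without SNT_4dpi replicate 1 (adjusted p = 0.0578) or replicate 2 (adjusted p = 0.0541), and with the Cst3 side as a covariate (adjusted p = 0.681). Only SNT_7dpi and escalating morphine have libraries on both sides. The side is estimated from them alone in the covariate fit, so that fit cannot decide between group and side.

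Clk1 and Clk4 varied together on both sides of the Cst3 split. Over the 16 high-Cst3 libraries, on log2(FPKM + 1), Pearson's r was 0.868 (permutation p = 3e-05, adjusted over 15 pairs 0.00045) and Spearman's rho 0.826 (permutation p = 0.00019, adjusted 0.00285), and r was 0.695 without the 2 libraries farthest from the median. Over the 14 low-Cst3 libraries r was 0.943 (permutation p = 2e-05, adjusted 0.0003), rho 0.969 (permutation p = 1e-05, the smallest these permutations can give, adjusted 0.00015), and r without 2 libraries 0.959. Libraries of a group are not exchangeable with those of others, and as deviations from group means over the 30 libraries r was 0.823. How many other gene pairs reach such values was not counted, so they do not set these kinases apart. In the low-Cst3 libraries Ppcdc, picked as most like Clk1, had r = 0.944 with it, and Gsdmd, picked for Clk4, had 0.96. The FPKM of Clk1 was 2.54 to 5.22 times that of Clk4 in the high-Cst3 libraries (median 4.17) and 1.70 to 3.35 times in the low-Cst3 libraries (median 2.10), so the line was shifted between the sides.

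Clk2 followed the other CLK genes within the low-Cst3 libraries, none of which is fixed saline. There r was 0.839 with Clk1 (rho 0.824; permutation p = 0.00013 and 0.00043, adjusted 0.00065 and 0.00323), 0.905 with Clk4 (rho 0.811; permutation p = 9e-05 and 0.00069, adjusted 0.00065 and 0.00345) and 0.823 with Clk3 (rho 0.697; permutation p = 0.00047 and 0.0072, adjusted 0.00176 and 0.027). Without the 2 libraries farthest from the median of Clk1, r with Clk1 was 0.766. Without the 2 farthest from the median of Clk2, r was 0.811 with Clk4 and 0.641 with Clk3. In the pairs that follow, the 2 libraries left out are those farthest from the median of the first-named gene. Clk3 and Clk4 gave r = 0.739 over the 14 (permutation p = 0.0046, adjusted 0.0138) and rho = 0.49 (permutation p = 0.076, adjusted 0.19), and r was 0.341 without 2 libraries, so that relation rests on them. Over the 16 high-Cst3 libraries Clk3 and Clk4 gave r = 0.71 (permutation p = 0.0024, adjusted 0.018) and rho = 0.662 (permutation p = 0.0064, adjusted 0.032), with 0.519 without 2 libraries. Clk1 and Clk3 gave r = 0.602 there (permutation p = 0.014, adjusted 0.0525) and rho = 0.665 (permutation p = 0.0059, adjusted 0.032), with 0.621 without 2 libraries. Neither Srpk1 nor Srpk2 had a pair past an adjusted p of 0.05 in the low-Cst3 libraries. As deviations from group means over the 30 libraries r was -0.115 for Clk1 and Clk2, 0.329 for Clk2 and Clk4 and 0.314 for Clk2 and Clk3, values that take in the fixed-saline zeros and the SNT_7dpi pair at 0 and 10.1 FPKM and have no test. Pairs of Clk2 over the high-Cst3 libraries are not given because the zeros that chose it lie there.

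**Figure D4:**
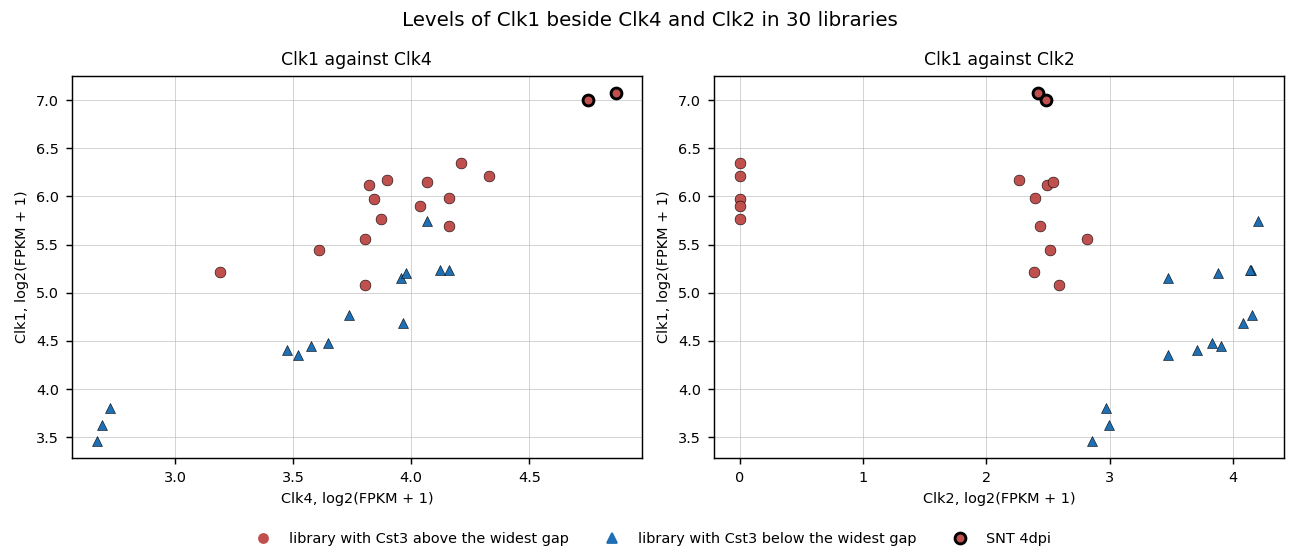
Clk1 against Clk4 (left) and against Clk2 (right), each on log2(FPKM + 1), 1 point per library; circles are high-Cst3, triangles low-Cst3, and thick edges mark SNT_4dpi. Clk1 and Clk4 lie along a line on each side (r = 0.868 and 0.943), and the 5 points at 0 on the right are the libraries where Clk2 is listed at 0.

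Genes most like each kinase were chosen by the highest r over all 30 libraries among 6679 candidates with a mean of at least 5 FPKM, and their r is given within the 16 high-Cst3 and the 14 low-Cst3 libraries, as a description. For Clk1 they were Ppcdc (0.742 and 0.944), Eif4a2 (0.679 and 0.75) and Zfp950 (0.647 and 0.881). For Clk4 they were Pisd-ps3 (0.706 and 0.962), Gsdmd (0.748 and 0.96) and Akap8l (0.661 and 0.946), and for Clk3 Vps51 (0.929 and 0.889), Trabd (0.899 and 0.786) and Slc39a7 (0.923 and 0.624). Pisd-ps3 is a pseudogene, and its reads may be shared with its parent gene. For Clk2, whose ranking took in the zeros that chose it, they included Ctcf and Vps54, with r of 0.501 and 0.423 in the low-Cst3 libraries. For Srpk1 they included Eci1 (0.818 and 0.837) and Mrpl47 (0.678 and 0.929). Srpk2 had the weakest likeness, with Gyg (0.506 and 0.73), Sri (0.49 and 0.732) and Ifitm1 (0.521 and 0.715).

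The substrates of these kinases, the SR proteins, were read from a list of 13 genes, 12 of which were tested. At SNT_4dpi, where Clk1 and Clk4 were highest, 10 of the 12 had a positive difference from controls. The median was 0.40, beside 0.03 over all genes tested, and 10 were positive under each of the 3 other scalings as well (medians 0.34 to 0.44). Of the 12, 0 were called, against 0% of all genes, and the lowest p was that of the splicing regulator Tra2b at 0.63 ± 0.23 (SE; limma, adjusted p = 1.00). The positive count was also 9 at SNT_7dpi, CCI_2dpi and CCI_7dpi, and it was 2, 5 and 3 at SNT_1dpi, SNT_2dpi and SNI_7dpi. Clk1 and Clk4 had their lowest group means in CCI_2dpi, and a link between kinase and SR protein levels was not tested. Under fixed morphine 2 of 12 were called higher and 0 lower, against 13.6% and 4.46% of all genes, with a median of 0.40 beside 0.22 over all genes (0.18 to 0.71 under the other scalings). Srsf9, an SR protein, had 101 to 156 FPKM against 51.2 to 95.5 FPKM in fixed saline (log2 difference 0.91 ± 0.28, SE; limma, adjusted p = 0.0404), and Srsf10 had 17.7 to 27.7 against 11.7 to 15.2 FPKM (0.68 ± 0.21, SE; limma, adjusted p = 0.0404). Over the alternatives tried this count ran from 0 to 6, and it was 0 without saline_fixed replicate 3, 4 or 6, without morphine_fixed replicate 2 or 3, or with median-ratio scaling. Under escalating morphine 0 were called, against 0.0340% of all genes, and Srsf3 had the lowest p at -0.83 ± 0.27 (SE; limma, adjusted p = 0.139). There 8 of 12 were negative with a median of -0.24 (-0.42 to -0.18 under the other scalings). Over the 7 injury groups as a whole 0 were called, against 0% of all genes, and Srsf9 had the lowest p, at 0.52 ± 0.20 (SE; limma, adjusted p = 0.834).

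Other related kinases, a list of 13 with 11 tested, had the highest median of the 3 lists under fixed morphine, 0.85 (0.56 to 1.32 under the other scalings): 5 were called higher and 1 lower, against 13.6% and 4.46% of all genes. Of the 11, 9 had a positive difference and 2 a negative one. The DYRK and HIPK kinases are relatives of the CLK family, and the 5 called higher were among them, while Dyrk1b and Dyrk4 were tested and not called. Hipk3 was higher by 2.44 ± 0.49, Hipk1 by 1.58 ± 0.34, Dyrk2 by 1.58 ± 0.42, Hipk2 by 1.15 ± 0.34 and Dyrk1a by 1.11 ± 0.31 (SE; limma, adjusted p from 0.00812 to 0.0347). Srpk3, the third SRPK gene, fell by 1.07 on the log2 scale ± 0.24 (SE; limma, adjusted p = 0.0109), with 3.59 to 4.56 FPKM against 6.99 to 14.8 FPKM in fixed saline. These 6 differences kept their direction under each scaling, and Hipk2 was not called with quantile normalization (adjusted p = 0.0832) or median-ratio scaling (adjusted p = 0.0765), nor Dyrk1a with quantile normalization (adjusted p = 0.0607; limma). Over the alternatives tried the number called ran from 3, without saline_fixed replicate 5 or without morphine_fixed replicate 3, to 8 with TPM rescaling, where Prpf4b and Cdk13 were called as well. Of these 11 genes, 4 (Dyrk1a, Dyrk2, Hipk1 and Hipk3) were lower in every high-Cst3 than in every low-Cst3 library, against 3.49% of all genes. Hipk3 had 0.697 to 5.34 against 8.59 to 18.2 FPKM, and Hipk1 had 1.78 to 8.06 against 12.8 to 20.1 FPKM. Fixed saline is wholly high-Cst3 and fixed morphine wholly low-Cst3, so treatment and side cannot be told apart for these genes. None of the 12 SR proteins and none of 17 other splicing factors with arginine-serine domains separated in this way. Under escalating morphine 0 of the 11 kinases were called, against 0.0340% of all genes, and Dyrk1a had the lowest p at 1.23 ± 0.36 (SE; limma, adjusted p = 0.116). There 9 of the 11 were positive with a median of 0.71, beside 0.16 over all genes (0.47 to 0.96 under the other scalings). The difference between regimens had a median of 0.07 in these kinases, beside 0.06 over all genes, and 0 were called, against 0.00850% of all genes.

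The 17 other splicing factors with such domains were all tested. None was called at SNT_4dpi, against 0% of all genes, and Rbm39 had the lowest p at 0.46 ± 0.28 (SE; limma, adjusted p = 1.00). None was called under fixed morphine, against 18.0% of all genes, and Rbm39 had the lowest p at 0.39 ± 0.15 (SE; limma, adjusted p = 0.0789). Nor was any called under escalating morphine, against 0.0340% of all genes, where Srrm2 was at 0.74 ± 0.22 (SE; limma, adjusted p = 0.122). Under fixed morphine the number called ran from 0 to 5 over the alternatives, and with TPM rescaling Luc7l, Luc7l2, Rbm25, Rbm39 and U2af2 were called. No gene of the 3 lists was called in any injury comparison against controls, where 0% to 0.204% of all genes were called. Over all 12 groups Srsf9, Dyrk1a, Dyrk2, Hipk1, Hipk2 and Hipk3 were called (limma moderated F-test, adjusted p from 0.00473 to 0.0371), against 7.72% of all genes, and without fixed saline Dyrk2, Hipk1 and Hipk3 (adjusted p from 0.0262 to 0.0321), against 2.96%. The number of SR proteins called over all groups, 1, ran from 0 to 8 over 40 alternatives and moved by over 1.5 times in 26 of them; that of the related kinases, 5, ran from 0 within the Cst3 sides to 9 with array weights.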

How the data were processed

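RNA from CD11b-selected lumbar spinal cord cells was made into libraries by the Smart-Seq2 protocol for full-length cDNA and finished with Nextera XT, per the labels' protocols. The authors deposited 1 table of FPKM values with 30 columns, 1 per library. The submitters' processing notes name, without roles, Cufflinks 2.2.1, HISAT2 2.0.5.1, featureCounts 1.4.6, DESeq2 and the build mm10, so the tool behind the FPKM values is unknown; the annotation is not given in the sources used here. Column sums ran from 299828 to 501707, and no further scaling was applied.

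From the 24888 rows, 826 that share 281 repeated symbols were left out. The 11759 genes that reached 1 FPKM in 2 or more libraries were tested on log2(FPKM + 1). The tests were two-sided and moderated, with a trend on mean level, from limma 3.58.1 (R 4.3.3), with Benjamini-Hochberg adjustment over all genes tested, and a threshold of 0.05. A log2 difference on this scale understates the change of low genes. Injury groups were compared with the 9 controls in a fit of 23 libraries, or with 5 controls for Clk2, morphine groups with the saline group of their regimen in a fit of 14, and all groups in a fit of 30. Correlations used 100000 permutations. Procedures were tested on simulated data. Python 3.11.15, pandas 2.3.3 and matplotlib 3.10.9 did the rest.

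All 6 members are described in every group; differences are given for called members or, with none, the lowest p among members that may be tested, and the 3 most alike genes are named for each member, of which some are not reported here. The members and the lists were chosen with earlier results of these data known, and the Cst3 split was found after the data were seen.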

Additional observations from a re-analysis of the deposited data

Results flagged for a closer look

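Clk4 in naive replicate 1, at 5.60 FPKM, lay farther below the other 8 controls (13.1 to 19.1 FPKM) than the spread among them allows by Dixon's test; 1 of 16 groups of libraries tested was so, and chance gives about 1 in 20. In the same library Clk1 was at 12.9 FPKM and Srpk1 at 1.77 FPKM, each the lowest of the 9 controls. The read-through row Clk2-scamp3, which no comparison used, was at 5.52 FPKM in CCI_7dpi replicate 2 and at 0 in all 9 controls and in the other 20 libraries. With that row added to Clk2, the library had 15.6 FPKM instead of 10.1 FPKM. Of 40 differences between injury groups or between regimens tested in the 5 kinases, none passed the threshold.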

How the results depend on the processing

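The fit with the replicate number as a block (replicate block) changed no count of called kinases: it gave 1 under fixed morphine and 1 over all groups, and the Clk1 difference under fixed morphine was -1.25 (limma, adjusted p = 0.00753). In the naive and injury groups, same-numbered libraries showed no common deviation (28 pairs of groups, correlations from -0.429 to 0.224, median -0.0148). The saline and morphine groups were not in that check. Control libraries are numbered in a single run from 1 to 9 over the naive, fixed-saline and escalating-saline groups, and each morphine group starts again at 1. No label ties a shared number to a pair, so for these groups the block joins libraries by number alone. The Clk1 difference under fixed morphine was -1.44 to -0.94 over 23 alternatives, and it was called in all but the fit of all 30 libraries, which left 0 kinases called. Under array weights 1 kinase was called between the kinds of control, 2 over all groups and 3 over all groups without fixed saline. Over all groups 0 were called without a filter or within the Cst3 sides, and without fixed saline 1 was called when the 3 libraries with few genes were left out. Leaving out 1 library at a time gave 0 to 1 called at SNT_2dpi, 0 to 1 for Clk2 over the injury comparisons, 0 to 2 over all groups and 0 to 2 without fixed saline; the count of 2 over all groups came without SNT_2dpi replicate 1. Of the 10 pairs of kinases without Clk2, 1 correlated past an adjusted p of 0.05 over 30 libraries (Clk1 and Clk4), 2 as deviations from group means, 3 without the 3 libraries with few genes, 2 in the high-Cst3 and 3 in the low-Cst3 libraries. The share of all gene pairs that would pass was not computed, so these counts have no background beside them. With naive controls alone, Clk1 turned positive at SNT_7dpi (0.64), CCI_7dpi (0.44), SNI_7dpi (0.17) and over all injury groups (0.74), and it was 0.44 and 0.17 for CCI_7dpi and SNI_7dpi within the Cst3 sides. Leaving out 1 library moved Clk1 from -1.39 to 0.23 at SNT_7dpi and from -2.12 to 0.0057 at SNI_7dpi. For Clk2 against 5 controls it gave -2.88 to 0.59 at SNT_7dpi and -0.29 to 0.27 over all injury groups; the replicate block gave 0.0104 for the latter, and without the 3 libraries with few genes the values were 0.59 and 0.20. None of these differences that turned was called. The causes were not tested. The within-side fits and the sum of the Clk2 and Clk2-scamp3 rows were chosen after seeing the data. Depth is unknown, which limits what a value of 0 can show, and most groups have 2 libraries.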
